A study of Mus musculus with 8 samples.

Results

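The nuclear-encoded genes of the mitochondrial respiratory chain were followed through a CpG time course in mouse dendritic cells of 2 genotypes. Names starting with Nduf, Sdh plus a to d, Uqcr, Cox4 to Cox8 or Atp5 were taken from the deposited table, and 91 names matched. Of these, 86 were chosen by their control levels, at least 1 CPM (reads scaled to a library total of 1000000) in the control library of both genotypes, and make up the set out of 25017 named rows. They comprise 44 genes of complex I, 4 of complex II, 8 of complex III, 14 of complex IV and 16 of complex V. Control values are therefore given as description only, and tested changes start at 1 h of CpG. The 5 names left out were Ndufa4l2, Cox4i2, Atp5l, Atp5l-ps1 and Atp5l2-ps. Nearest the limit inside it were Cox7a1, at 2.09 CPM in the IFNAR;RelB-DBDB control and 1.62 CPM in the RelB-DBDB control, and Cox6b2, at 2.00 and 1.14 CPM in those controls. Nearest outside it was Ndufa4l2, at 0.918 CPM in the IFNAR;RelB-DBDB control and 0.380 CPM in the RelB-DBDB control.

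Bone marrow of C57BL/6 mice was grown into dendritic cells with GM-CSF at 20 ng/ml and IL-4 at 10 ng/ml, and the medium was partly renewed on days 3 and 6. IFNAR;RelB-DBDB cells, which lack the type I interferon receptor, and RelB-DBDB cells both carry the RelB-DBDB allele, whose nature the labels do not spell out. Cells of each genotype were given 0.1 µM CpG, an oligonucleotide that activates Toll-like receptor 9, for 1, 3 or 8 h, or were left as a control labelled 1 h, so 3 and 8 h have no untreated counterpart. There was 1 library for each of the 8 combinations of genotype and condition, and the labels name no separate cultures or animals, so p-values measure only the spread between these libraries. In the time fits that spread is the departure of the genotypes from a shared course over the conditions, not a spread between replicates. The question the design puts is how the CpG response differs when interferon signalling through its receptor is lost.

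The respiratory chain sits in the inner mitochondrial membrane. Complex I takes electrons from NADH and complex II from succinate, both pass them to ubiquinone, complex III hands them to cytochrome c, and complex IV reduces oxygen. Complexes I, III and IV pump protons, and complex V (ATP synthase) uses the gradient to make ATP. Most subunits are encoded in the nucleus and a few in mitochondrial DNA, while complex II is wholly nuclear. Dendritic cells activated through Toll-like receptors are known to lower respiration and raise glycolysis at late times.

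The shallowest library, of IFNAR;RelB-DBDB cells at 8 h, held 3711818 reads, and the deepest, of RelB-DBDB cells at 8 h, held 37221530, so 1 read was worth at most 0.269 CPM. The RelB-DBDB 8 h library stood apart from the other 7: 6.26% of its reads fell on mitochondrially encoded genes against 1.74% to 2.41%, it had 11227 genes at 1 CPM or more against 11512 to 11888, and 12 dendritic cell markers summed to 8423 CPM against 12055 to 15378 CPM. The low sum followed Cd74 (4194 CPM) and H2-Aa (961 CPM), and Itgax (645 CPM), H2-Ab1 (1151 CPM), Batf3 (50.5 CPM) and Flt3 (9.35 CPM) were also lowest there. Ccr7 (1119 CPM), Ciita (203 CPM), Zbtb46 (87.7 CPM) and Clec9a (1.13 CPM) lay within the range of the other libraries. The macrophage and monocyte sum (1089 CPM against 1204 to 1657 CPM) and the neutrophil sum (130.5 CPM against 204 to 255 CPM) were lowest there too. These values use library totals, and those of this library stand relatively higher under TMM scaling factors (0.780 against 0.971 to 1.10 in the others). Medians of the members are also given without this library for changes to 8 h and for the genotype comparison. Log2 changes without it are given only for the members called from 1 to 8 h. Other results of fits by gene include it, and values of that single library stand alone. Between 10 and 11 of the dendritic cell markers reached 1 CPM in every library, with Xcr1 or Cd209a at 0 in some, and 6 erythroid markers summed to under 1 CPM throughout. T and NK cell markers summed to 104 to 132 CPM in IFNAR;RelB-DBDB libraries and 18.3 to 25.9 CPM in RelB-DBDB libraries, and their part in any genotype difference was not tested. Ifnar1, a receptor subunit gene, had 56.1 to 102 CPM in IFNAR;RelB-DBDB cells and 102 to 127 CPM in RelB-DBDB cells, so its reads were present in every library, and since the table does not say where in the gene they fell, the loss of the receptor was not checked by it. In bulk RNA, fewer cells of a type and less RNA per cell cannot be told apart.

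The 86 genes lie on 19 chromosomes and span a wide range of levels. Per kilobase of transcript, the median gene of each complex averaged 44.6 CPM per kb in complex I, 82.5 in complex II, 96.1 in complex III, 111 in complex IV and 138 in complex V over the 8 libraries. The highest levels per kb belonged to Atp5b (538 CPM per kb), the catalytic beta subunit of ATP synthase, Cox4i1 (422 CPM per kb), the general isoform of cytochrome oxidase subunit 4, and Cox8a (388 CPM per kb), its smallest subunit. Alpha subunit gene Atp5a1, whose product surrounds the rotor together with Atp5b's, followed at 362 CPM per kb. Within complex I the top gene per kb was Ndufa6 (130.3 CPM per kb), within complex II Sdhd (132) and within complex III Uqcrh (242). For 29 of the 86 genes, at least 10% of the 50-base windows of their transcripts also occur in another gene, so reads of such genes may have been split or shared by the authors' counting. Another 39 genes share no window.

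Promoters were read for the 73 genes with an entry in the RefSeq table (GRCm38.p6, 250 bases before to 50 after the start), and 3 motifs of factors known to act on respiratory genes were searched on both strands. NRF1, a factor named for nuclear respiratory genes, was given as GCGCA, any base and GCGC, the ETS-type site of GABPA as CCGGAAG, and the YY1 site as AAGATGG. The NRF1 letters occurred in 19 of 73 windows (26.0%), against 11.6% of 9152 tested genes with a window and 5.19% of all 27025 windows. The ETS letters were found in 21.9% of the members' windows, 20.5% of tested genes' windows and 9.93% of all windows, and the YY1 letters in 16.4%, 8.65% and 7.28%. Such a match is a description of letters, not a bound site. Any of the 3 occurred in 41 of 73 members' windows (56.2%), 35.3% of tested genes' windows and 20.0% of all windows. The 5 windows printed here were chosen because they hold a match. Of their genes, 4 were lower at 8 h in RelB-DBDB cells, and Ndufs6 was higher there. Other genes lower there hold no match, among them Ndufb11, Ndufv1, Ndufv3, Uqcrfs1, Cox5a and Atp5b, while some, such as Ndufa6 and Atp5c1, do. Capitals mark the motif matches, which do not overlap each other. Ndufs7 (chr10:80249199-80249498, plus strand) and Ndufs8 (chr19:3912725-3913024, minus strand) encode iron-sulfur subunits of complex I, with 1 YY1 match in the Ndufs7 window and 1 ETS match in the Ndufs8 window. Sdhd (chr9:50603800-50604099, minus strand), a membrane anchor of complex II, has 1 NRF1 and 1 ETS match, and Uqcrc1 (chr9:108936398-108936697, plus strand), a core protein of complex III, has 2 NRF1 matches. Ndufs6 (chr13:73328433-73328732, minus strand), an accessory subunit of complex I, has 1 NRF1 and 1 YY1 match.
Ndufs7: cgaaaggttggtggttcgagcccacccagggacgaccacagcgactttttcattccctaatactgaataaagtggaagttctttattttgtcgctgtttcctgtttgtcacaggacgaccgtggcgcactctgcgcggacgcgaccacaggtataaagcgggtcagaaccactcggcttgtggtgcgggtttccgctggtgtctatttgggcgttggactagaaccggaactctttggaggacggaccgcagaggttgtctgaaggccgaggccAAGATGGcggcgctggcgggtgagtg
Ndufs8: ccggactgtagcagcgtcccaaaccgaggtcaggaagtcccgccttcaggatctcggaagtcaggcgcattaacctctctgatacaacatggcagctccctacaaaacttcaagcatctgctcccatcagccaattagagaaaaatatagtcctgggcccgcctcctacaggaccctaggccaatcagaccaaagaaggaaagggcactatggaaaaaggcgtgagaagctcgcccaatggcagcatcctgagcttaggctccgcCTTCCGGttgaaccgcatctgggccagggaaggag
Sdhd: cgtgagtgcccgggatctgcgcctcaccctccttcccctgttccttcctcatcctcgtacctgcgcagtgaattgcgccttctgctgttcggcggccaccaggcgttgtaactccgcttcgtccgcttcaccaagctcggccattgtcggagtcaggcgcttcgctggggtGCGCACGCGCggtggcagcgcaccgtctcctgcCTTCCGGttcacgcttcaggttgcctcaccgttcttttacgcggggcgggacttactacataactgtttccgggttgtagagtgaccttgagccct
Uqcrc1: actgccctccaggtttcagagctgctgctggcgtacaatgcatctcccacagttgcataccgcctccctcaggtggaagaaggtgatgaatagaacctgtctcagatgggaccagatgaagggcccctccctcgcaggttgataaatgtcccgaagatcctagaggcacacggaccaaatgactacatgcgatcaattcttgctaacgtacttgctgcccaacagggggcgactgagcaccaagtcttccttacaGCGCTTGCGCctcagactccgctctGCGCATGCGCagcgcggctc
Ndufs6: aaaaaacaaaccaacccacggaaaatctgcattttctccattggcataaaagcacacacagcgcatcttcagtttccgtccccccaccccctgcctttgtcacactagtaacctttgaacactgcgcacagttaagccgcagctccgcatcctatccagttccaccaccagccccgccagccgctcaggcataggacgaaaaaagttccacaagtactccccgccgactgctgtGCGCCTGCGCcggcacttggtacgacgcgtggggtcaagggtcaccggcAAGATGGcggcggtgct

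Between 1 and 3 h of CpG the genes moved little. In limma's test on log2(CPM + 1) over both genotypes, 0 of 86 were called at an adjusted p under 0.05, and 3.16% of all 12297 tested genes were called higher and 3.46% lower. Just 1 member (1.16%) had an unadjusted p under 0.05, against 22.6% of all tested genes. The standard errors come from all 8 libraries, so a departure of the genotypes at 8 h widens them here too. The low share therefore does not show that members were steadier than other genes. The median log2 change of the members was -0.15, beside -0.14 over all tested genes. The gene with the unadjusted p under 0.05 was Ndufv3, an accessory subunit of the NADH-binding module (log2 change -0.47 ± 0.16 SE, adjusted p = 0.138). It had 79.6, 77.0, 60.8 and 51.5 CPM in IFNAR;RelB-DBDB cells and 80.3, 92.7, 60.6 and 44.4 CPM in RelB-DBDB cells, in the order control, 1, 3 and 8 h that is used throughout. In both genotypes its 3 and 8 h libraries were the lowest. With 1 library left out at a time, the median 1 to 3 h change of the members ran from -0.27 to -0.0022.

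By 8 h of CpG respiratory chain transcripts summed to less than at 1 h in both genotypes, with the lower ratio in RelB-DBDB cells. Summed over the 86 genes they took 9467, 8732, 8365 and 7572 CPM in IFNAR;RelB-DBDB cells and 9310.4, 9035, 7895 and 5082 CPM in RelB-DBDB cells. The 8 h sum was thus 0.867 of the 1 h sum in IFNAR;RelB-DBDB cells and 0.562 in RelB-DBDB cells. By complex, the ratio of 8 h to 1 h sums in IFNAR;RelB-DBDB cells was 0.848 for complex I, 0.810 for complex II, 0.855 for complex III, 0.968 for complex IV and 0.852 for complex V. In RelB-DBDB cells it was 0.580, 0.554, 0.545, 0.678 and 0.508 for complexes I to V. Complex IV had the ratio nearest to 1 in both genotypes, and complex V the lowest in RelB-DBDB cells. That order is one of sums, which abundant genes dominate. By the median log2 change of single genes, complex II was lowest in RelB-DBDB cells (-1.265, against -0.97 in complex V). Of the 86 genes, 68 had their lowest value of the 8 libraries in the RelB-DBDB 8 h library and 7 their highest. These sums, ratios and counts use library totals. The RelB-DBDB 8 h library had a TMM factor of 0.780 against 0.971 to 1.10 in the others, so its values stand relatively higher under TMM factors.

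**Figure D1:**
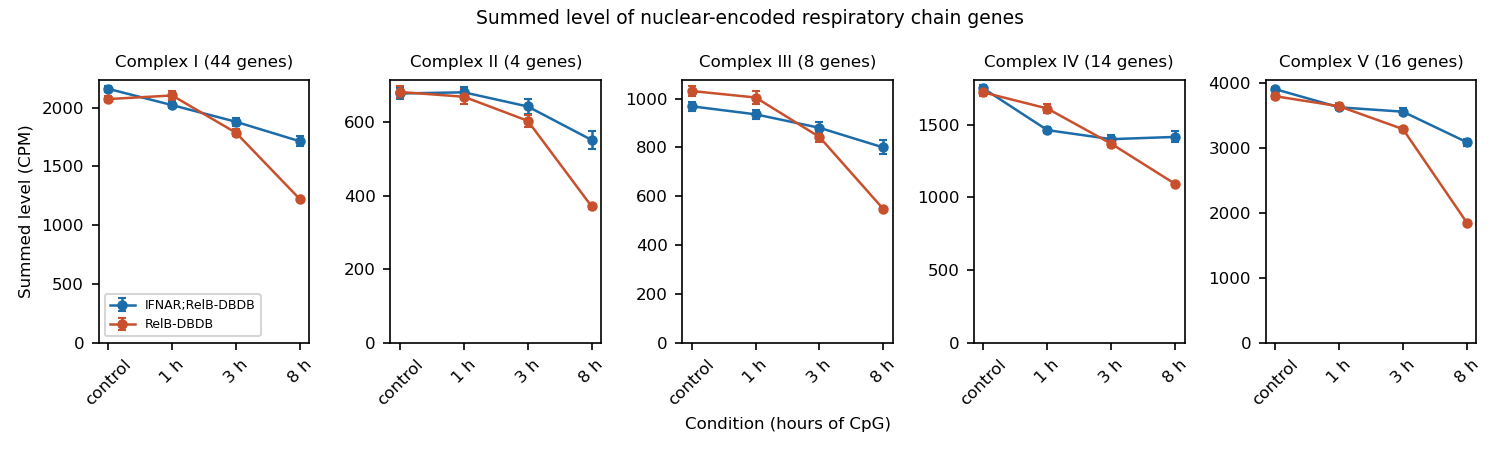
Summed level (CPM) of the members of each complex, I to V, at control and 1, 3 and 8 h of CpG, with IFNAR;RelB-DBDB cells in blue and RelB-DBDB cells in orange; each point is 1 library and bars are exact 95% counting intervals. Under library totals every complex was lowest in the RelB-DBDB 8 h library, and complex V summed to 3090.4 CPM in IFNAR;RelB-DBDB cells against 1850.5 CPM in RelB-DBDB cells at 8 h.

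Tested over both genotypes, 11 of 86 members fell from 1 to 8 h and 0 rose (limma, adjusted p under 0.05), a share of 12.8% lower, beside 13.5% of all tested genes called lower and 6% called higher. That share is near the background, so the number of calls says nothing particular about respiratory chain genes. The median change was -0.55 in log2 over the members and -0.22 over all tested genes, and 44 members (51.2%) had an unadjusted p under 0.05, against 37.4% of all tested genes. Without the RelB-DBDB 8 h library the median of the members was -0.22. The 11 were Ndufa6, Ndufb11, Ndufs1, Ndufs7, Ndufs8 and Ndufv3 of complex I, Uqcrc1 of complex III, and Atp5c1, Atp5f1, Atp5g2 and Atp5sl, counted with complex V. Without the RelB-DBDB 8 h library the log2 changes of these complex I genes were, in that order, -0.42, -0.88, -0.44, -0.53, -0.49 and -0.66. That of Uqcrc1 was then -0.53, and those of Atp5c1, Atp5f1, Atp5g2 and Atp5sl were -0.39, -0.44, -0.52 and -1.08. None of the 4 complex II and 14 complex IV genes was called. Leaving out either 8 h library leaves the 8 h level resting on 1 library that is assumed to vary like the rest. It also takes the genotype difference at 8 h out of the spread, so the calls of those fits are not weighed here. Without the RelB-DBDB 1 h library 0 members were called, without the IFNAR;RelB-DBDB 1 h, the IFNAR;RelB-DBDB 3 h or the RelB-DBDB 3 h library 1 each (Ndufb11), and without either control 3 each. With TMM or median-ratio factors in place of library totals 6 and 4 fell. The share of all tested genes called in these alternative fits is not given, so their counts have no background beside them. Of 18 alternatives tried, Ndufb11 was called lower in 17, Ndufv3 in 13, Uqcrc1 in 12 and each of the other 8 genes in 5 to 8, with adjusted p-values of up to 0.358 in the rest.

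Set beside each other, the single libraries of the 2 genotypes differed in how many genes were lower at 8 h. In IFNAR;RelB-DBDB cells 3 of 86 members were at least 1.5-fold below their 1 h level, where 15.8% of all tested genes were, and 0 were 1.5-fold higher, where 9.29% of all were. This 8 h library was the shallowest, with 1 read worth 0.269 CPM. The tested genes include some near 1 CPM, whereas the median member averaged 60.6 CPM, so these shares are not matched for level. They do not show that members changed less than other genes. In RelB-DBDB cells 61 of 86 members were at least 1.5-fold lower (all tested genes 36.1%) and 3 at least 1.5-fold higher (13.8%). The 61 comprise 30 of 44 genes of complex I, 3 of 4 of complex II, 5 of 8 of complex III, 8 of 14 of complex IV and 15 of 16 of complex V. Under TMM factors these counts were 19, 3, 4, 3 and 8 for complexes I to V, and under median-ratio factors 19, 3, 4, 4 and 8. With 1 library on each side these counts have no replicate check. The median member changed by -0.18 in IFNAR;RelB-DBDB cells (all tested genes -0.10) and by -0.80 in RelB-DBDB cells (all tested genes -0.33), on the log2(CPM + 1) scale. Under TMM factors the median of all genes in RelB-DBDB cells was 0.022, the median member -0.45, and 37 members (43.0%) were lower against 21.4% of all genes. The distance of the median member from the median of all genes hardly moved: it was -0.47 in RelB-DBDB cells and -0.08 to -0.07 in IFNAR;RelB-DBDB cells under library totals, TMM factors, median-ratio factors and totals without mitochondrially encoded genes. The direction of the complex medians held under these scalings except for complex IV in IFNAR;RelB-DBDB cells, which was -0.075 with library totals and 0.033 with median-ratio factors.

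**Figure D2:**
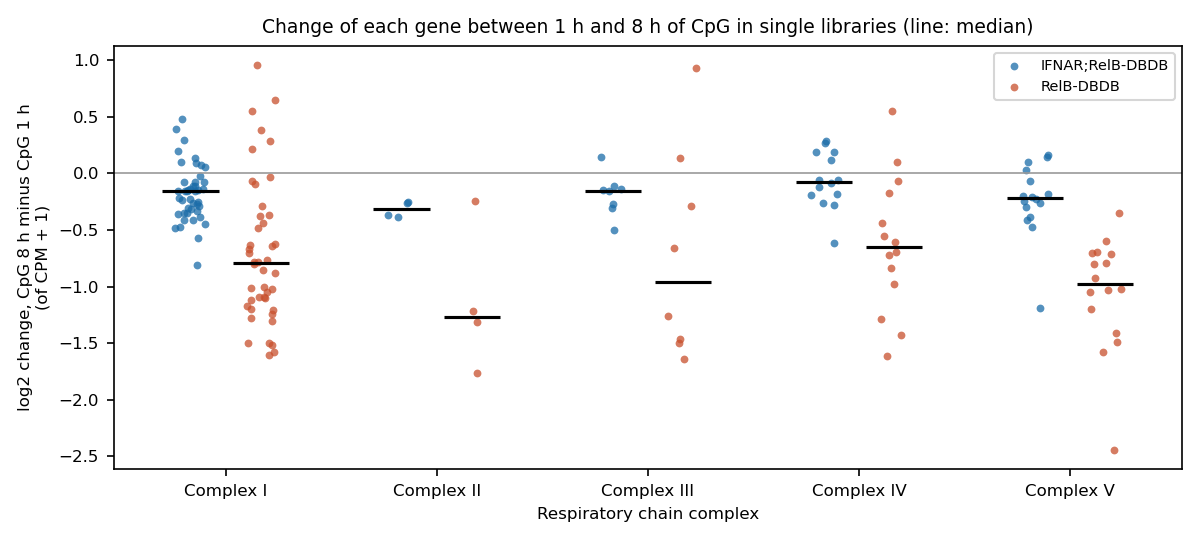
Change in log2(CPM + 1) of each member from 1 to 8 h of CpG, by complex, with IFNAR;RelB-DBDB cells left of RelB-DBDB cells; each point is 1 gene in 1 library per time, spread sideways for sight, and black lines are medians of the complex. Members of complex V centre on -0.22 in IFNAR;RelB-DBDB cells and on -0.97 in RelB-DBDB cells.

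Whether the genotypes differed more at 8 h than before was tested with a term added after the values were seen, fitted with limma to the 6 CpG libraries and leaving 1 residual degree of freedom. The term is the IFNAR;RelB-DBDB minus RelB-DBDB difference at 8 h beyond that at 1 and 3 h, in log2, so a positive (higher) term means relatively more in IFNAR;RelB-DBDB cells at 8 h. It rests on 1 library of each genotype at 8 h and cannot be fitted without either of them. For this term, shares of all tested genes are given under library totals only. The term was called higher for 34 of 86 members (12.7% of all tested genes) and lower for 2 (4.66% of all), with a median of 0.58 over the members and 0.24 over all tested genes. By complex the 34 comprise 13 of 44 genes of complex I, 3 of 4 of complex II, 4 of 8 of complex III, 4 of 14 of complex IV and 10 of 16 of complex V. Scaling mattered to the count: TMM factors left 11 higher and 6 lower, median-ratio factors 15 and 6, removal of a GC trend 12 and 4, and without a filter on low values no gene of the table was called. The genes called higher under library totals, both factor scalings and GC removal alike were Atp5e, Atp5g1, Atp5g3, Cox5a, Cox7c, Ndufa2, Ndufa4, Ndufb5, Sdhd and Uqcrfs1, and Uqcrb and Cox6c were called lower under all of these. Terms and calls of single genes given below are those under library totals. For members not named in the sentence before, such a call did not hold under all of these settings. GC content moved with the RelB-DBDB 8 h library: across 12200 genes its change from 1 h had r = -0.30 with transcript GC, and across the 86 members r = -0.17, as a description over genes that share both libraries. All tested genes with a GC content under 45% had a median change of 0.034 there and those at 55% or more -0.67, whereas for members the medians were -0.72 and -0.92. The part of GC content, of the mitochondrial share (6.26%) and of the lower marker sums (8423 CPM for dendritic cells) in these differences was not tested.

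**Figure D3:**
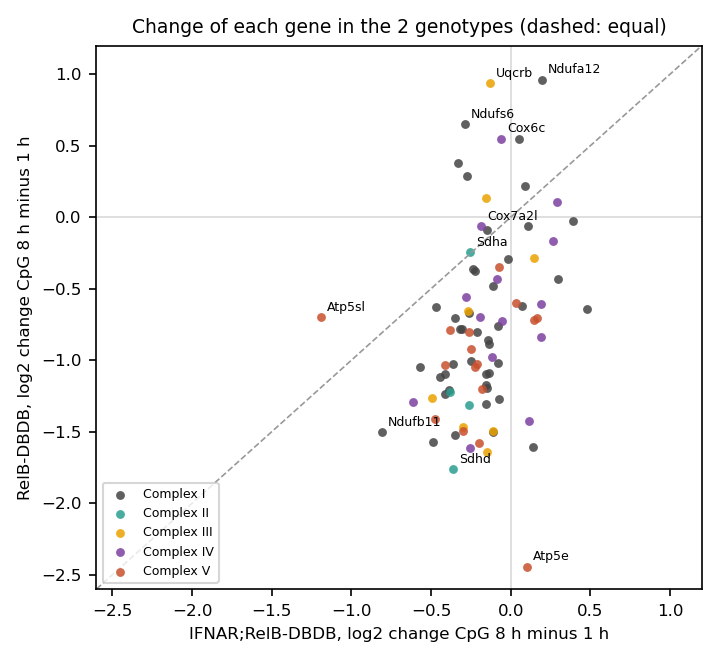
Change in log2(CPM + 1) from 1 to 8 h of CpG in IFNAR;RelB-DBDB cells (horizontal) and in RelB-DBDB cells (vertical), 1 point per member, coloured by complex; the dashed line marks equal change. Most members lie below the line; Atp5e is the farthest, at 0.10 in IFNAR;RelB-DBDB cells against -2.44 in RelB-DBDB cells, while Ndufa12, Uqcrb, Ndufs6 and Cox6c lie above 0 in RelB-DBDB cells.

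Complex I is built around core subunits that carry the flavin and the iron-sulfur clusters. All 7 of the nuclear core genes were at least 1.5-fold lower at 8 h in RelB-DBDB cells (36.1% of all tested genes), 5 of 7 under TMM or median-ratio factors, and their summed level was 0.789 of the 1 h sum in IFNAR;RelB-DBDB cells and 0.483 in RelB-DBDB cells. Ndufv1, which binds NADH and holds the flavin, had 98.3, 99.4, 92.9 and 75.7 CPM in IFNAR;RelB-DBDB cells and 94.7, 90.7, 80.2 and 38.7 CPM in RelB-DBDB cells. Both 8 h libraries were the lowest of their genotype, and the 8 h genotype term was 0.78 (adjusted p = 0.0185). Ndufs7, which carries the last iron-sulfur cluster before ubiquinone, had 49.4, 50.6, 50.6 and 35.8 CPM in IFNAR;RelB-DBDB cells and 58.7, 55.5, 43.1 and 18.0 CPM in RelB-DBDB cells. It fell from 1 to 8 h (log2 change -1.03 ± 0.29 SE, adjusted p = 0.0466; called in 5 of 18 alternatives) and differed more between genotypes at 8 h (term 0.91, adjusted p = 0.0275), and its promoter window is printed above. Ndufs8, another iron-sulfur subunit whose promoter is printed above, had 68.0, 63.5, 58.3 and 46.3 CPM in IFNAR;RelB-DBDB cells and 58.7, 62.2, 54.8 and 28.2 CPM in RelB-DBDB cells and fell (log2 change -0.78 ± 0.20 SE, adjusted p = 0.0346). Ndufs1, the largest core subunit, had 80.3, 80.2, 72.5 and 57.7 CPM in IFNAR;RelB-DBDB cells and 78.5, 73.5, 70.7 and 47.2 CPM in RelB-DBDB cells and fell as well (log2 change -0.55 ± 0.14 SE, adjusted p = 0.0379). For these, both 8 h libraries were the lowest of their genotype, and the 8 h genotype term did not pass (0.64 for Ndufs8 and 0.20 for Ndufs1).

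Among accessory subunits of complex I the strongest call was Ndufb11, an X-linked subunit of the membrane arm (chromosome X, 20615326 to 20617619, minus strand, mm10). It had 63.0, 55.5, 47.3 and 31.3 CPM in IFNAR;RelB-DBDB cells and 60.5, 59.6, 42.6 and 20.4 CPM in RelB-DBDB cells. In both genotypes the levels ran down through 3 h to the lowest value at 8 h. The 1 to 8 h change was -1.16 ± 0.20 (SE, adjusted p = 0.00966), and the 8 h genotype term did not pass (0.57, adjusted p = 0.11). Its call held under all alternatives tried except without the RelB-DBDB 1 h library (adjusted p = 0.132), and 17.5% of its windows are shared with other genes. Ndufa10, an accessory subunit of the membrane arm, had 116, 115, 109 and 97.5 CPM in IFNAR;RelB-DBDB cells and 121, 105, 102 and 81.6 CPM in RelB-DBDB cells and was not called (log2 change -0.30 ± 0.14 SE, adjusted p = 0.159). Ndufa6 had 90.5, 81.6, 68.6 and 63.3 CPM in IFNAR;RelB-DBDB cells and 98.5, 96.9, 68.4 and 47.1 CPM in RelB-DBDB cells, and both Ndufa6 and Ndufv3 fell (log2 -0.69, adjusted p = 0.0421, and log2 -0.81, adjusted p = 0.0159). The 8 h genotype term was positive and called for accessory genes Ndufa2 (1.53), Ndufb5 (1.06), Ndufa11 (1.02), Ndufa7 (1.01), Ndufb6 (1.00), Ndufs4 (0.84) and Ndufc1 (0.90), and for the assembly factors Ndufaf4 and Ndufaf5. Ndufa2, a small accessory subunit, had 55.4, 47.9, 54.3 and 52.8 CPM in IFNAR;RelB-DBDB cells and 59.3, 54.9, 45.9 and 17.4 CPM in RelB-DBDB cells. Ndufb5, of the membrane arm, had 74.0, 70.9, 63.2 and 55.5 CPM in IFNAR;RelB-DBDB cells and 76.3, 77.3, 58.7 and 26.3 CPM in RelB-DBDB cells. For both, the RelB-DBDB 8 h library lay far below the other 7. Of the 7 Ndufaf assembly factors, 0 were called between 1 and 8 h, with a median change of -0.15.

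Some complex I genes went the other way in the RelB-DBDB 8 h library, and they are named here after their values were seen. Ndufa12, an accessory subunit of the matrix arm, had 20.5, 15.9, 14.6 and 18.3 CPM in IFNAR;RelB-DBDB cells and 14.8, 14.4, 13.4 and 29.1 CPM in RelB-DBDB cells. Its RelB-DBDB 8 h value was the highest of the 8, with the other 7 close together. The 8 h genotype term was -0.76 and missed the threshold (adjusted p = 0.0958). Ndufs6 (chromosome 13, 73319838 to 73328542, minus strand), whose promoter is printed above, had 33.2, 30.8, 26.0 and 25.1 CPM in IFNAR;RelB-DBDB cells and 26.1, 28.1, 31.3 and 44.6 CPM in RelB-DBDB cells, again with the RelB-DBDB 8 h library on top and a term of -0.74 (adjusted p = 0.0742). Ndufa1, Ndufb4 and Ndufaf2 were also highest in that library, at 52.9, 4.89 and 10.2 CPM, against 38.5, 4.04 and 5.12 CPM in IFNAR;RelB-DBDB cells at 8 h. For Ndufa12, Ndufs6 and Ndufb4, 26.2%, 14.6% and 37.0% of transcript windows are shared with other genes, so their values are less certain, whereas Ndufa1 and Ndufaf2 share none.

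Complex II showed a split among its 4 subunits. Sdha, the flavoprotein that oxidises succinate, had 280.3, 283, 282 and 237 CPM in IFNAR;RelB-DBDB cells and 291, 277, 284 and 234 CPM in RelB-DBDB cells. Under library totals both 8 h libraries were the lowest of their genotype by much the same margin. The 8 h to 1 h ratio was 0.838 (95% interval 0.777 to 0.903) in IFNAR;RelB-DBDB cells and 0.844 (95% interval 0.801 to 0.890) in RelB-DBDB cells, the interval covering counting error only. TMM factors at 8 h and 1 h were 1.03 and 1.09 in IFNAR;RelB-DBDB cells but 0.780 and 1.03 in RelB-DBDB cells, so the likeness of these ratios holds for library totals only. Neither the 1 to 8 h change of Sdha (log2 change -0.25 ± 0.12 SE, adjusted p = 0.171) nor its 8 h genotype term (0.01 ± 0.16 SE) passed. Sdhd, a membrane anchor, had 189.8, 188, 163 and 146 CPM in IFNAR;RelB-DBDB cells and 198, 199.8, 153 and 58.2 CPM in RelB-DBDB cells. The RelB-DBDB 8 h library stood far below the other 7, and the ratio of 8 h to 1 h was 0.776 (95% interval 0.706 to 0.853) in IFNAR;RelB-DBDB cells against 0.291 (95% interval 0.272 to 0.313) in RelB-DBDB cells. Its 8 h genotype term was 1.31 ± 0.17 (SE, adjusted p = 0.00203), while the 1 to 8 h change over both genotypes missed the threshold (log2 change -1.06 ± 0.33 SE, adjusted p = 0.0629). Sdhc, the other anchor, had 112, 109, 110.0 and 90.5 CPM in IFNAR;RelB-DBDB cells and 105, 104, 94.1 and 41.4 CPM in RelB-DBDB cells. Sdhb, the iron-sulfur subunit, had 96.8, 102, 88.3 and 78.4 CPM in IFNAR;RelB-DBDB cells and 87.6, 88.6, 73.5 and 37.5 CPM in RelB-DBDB cells. For both, the RelB-DBDB 8 h library was the lowest of the 8, and the term was 0.97 for Sdhc (adjusted p = 0.00808) and 0.81 for Sdhb (adjusted p = 0.016). Sdhd was the only one of the 4 whose term was also called under TMM, median-ratio and GC-corrected values alike.

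In complex III the core proteins and the Rieske protein were lower at 8 h in RelB-DBDB cells. Uqcrc1, a core protein, had 250.2, 252, 247 and 179 CPM in IFNAR;RelB-DBDB cells and 262, 257, 217 and 107 CPM in RelB-DBDB cells, lower in both genotypes at 8 h than at any earlier point, and it fell (log2 change -0.88 ± 0.21 SE, adjusted p = 0.0284). Uqcrc2, the other core protein, had 162, 171, 141 and 142 CPM in IFNAR;RelB-DBDB cells and 174, 174, 146 and 109.6 CPM in RelB-DBDB cells and missed the threshold (adjusted p = 0.0783). Uqcrfs1, the Rieske iron-sulfur protein that passes electrons toward cytochrome c1, had 161, 163, 151 and 147 CPM in IFNAR;RelB-DBDB cells and 204, 186, 151 and 58.7 CPM in RelB-DBDB cells. In IFNAR;RelB-DBDB cells its 4 values were close together, and in RelB-DBDB cells the 8 h value lay far below the rest. Its term was 1.40 ± 0.17 (SE, adjusted p = 0.00149). Uqcr10, a small subunit, had 81.5, 72.9, 75.4 and 67.4 CPM in IFNAR;RelB-DBDB cells and 75.9, 80.0, 62.8 and 27.8 CPM in RelB-DBDB cells (term 1.19, adjusted p = 0.00751). Uqcrq, another, had 116, 98.6, 98.0 and 79.7 CPM in IFNAR;RelB-DBDB cells and 107, 108, 80.5 and 38.6 CPM in RelB-DBDB cells (term 0.96, adjusted p = 0.0149). Again the RelB-DBDB 8 h library was the lowest of the 8 for each. Cyc1, the cytochrome c1 gene that the name rule does not take in, had 130.0, 122, 112 and 91.1 CPM in IFNAR;RelB-DBDB cells and 128, 118, 102 and 27.5 CPM in RelB-DBDB cells, with a term of 1.60 (adjusted p = 0.00105) and a 1 to 8 h change that missed the threshold (adjusted p = 0.0666). Uqcrb, which binds ubiquinone, went the other way, at 32.6, 32.0, 25.5 and 29.1 CPM in IFNAR;RelB-DBDB cells and 35.0, 32.0, 30.5 and 62.1 CPM in RelB-DBDB cells. Its RelB-DBDB 8 h value was the highest, the other 7 overlapped, and the term was -0.94 ± 0.24 (SE, adjusted p = 0.0244), but 43.4% of its windows are shared with other genes. Uqcrh, a hinge protein, had 134, 121, 119.8 and 135 CPM in IFNAR;RelB-DBDB cells and 149, 147, 131 and 120.0 CPM in RelB-DBDB cells, and the genotypes overlapped.

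Complex IV had no gene called between 1 and 8 h. Cox4i1, an early-assembling subunit, had 365, 337, 320.3 and 311 CPM in IFNAR;RelB-DBDB cells and 370.4, 362, 334 and 183 CPM in RelB-DBDB cells. The RelB-DBDB 8 h library was the lowest and the other 7 lay close together, and the term was 0.84 ± 0.15 (SE, adjusted p = 0.00725). Cox5a had 196, 153, 135 and 128 CPM in IFNAR;RelB-DBDB cells and 197, 169, 119 and 54.5 CPM in RelB-DBDB cells, again lowest in the RelB-DBDB 8 h library, with a larger term (1.19 ± 0.19 SE, adjusted p = 0.00408), although 32.0% of its windows are shared. Cox7c had 38.8, 37.9, 36.1 and 41.2 CPM in IFNAR;RelB-DBDB cells and 41.5, 44.5, 37.6 and 15.9 CPM in RelB-DBDB cells and a term of 1.46. Cox7a2 had 66.5, 60.7, 59.4 and 69.5 CPM in IFNAR;RelB-DBDB cells and 61.9, 66.4, 60.3 and 36.8 CPM in RelB-DBDB cells and a term of 0.97, also called. Their RelB-DBDB 8 h values lay below the other 7. Cox8a had 293, 198, 191 and 191 CPM in IFNAR;RelB-DBDB cells and 279, 233, 178 and 141 CPM in RelB-DBDB cells, so its controls were above every CpG library, and its term missed the threshold (adjusted p = 0.0884). Cox6c had 67.9, 72.8, 73.9 and 69.8 CPM in IFNAR;RelB-DBDB cells and 65.4, 67.5, 63.6 and 99.2 CPM in RelB-DBDB cells. Its RelB-DBDB 8 h library was the highest and the other 7 lay within a narrow range, with a term of -0.66 ± 0.19 (SE, adjusted p = 0.036). Cox7a2l, known for joining complexes III and IV into supercomplexes, had 123, 126, 109.8 and 111 CPM in IFNAR;RelB-DBDB cells and 165, 158, 123 and 151 CPM in RelB-DBDB cells and was called in none of the fits. Cox5b and Cox6b1 were not called between 8 and 1 h, at 105 against 85.5 CPM and 155 against 129 CPM in IFNAR;RelB-DBDB cells, and at 109 against 102 CPM and 129 against 145 CPM in RelB-DBDB cells. Cox7a1, the muscle isoform, stayed near the floor at 2.09, 1.53, 0.910 and 1.08 CPM in IFNAR;RelB-DBDB cells and 1.62, 1.30, 1.48 and 0.564 CPM in RelB-DBDB cells. Cox6b2, the testis isoform, had 2.00, 1.53, 1.09 and 1.89 CPM in IFNAR;RelB-DBDB cells and 1.14, 0.974, 1.14 and 0.296 CPM in RelB-DBDB cells, and neither was called in any fit.

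Complex V held the gene with the highest level per kb and, in RelB-DBDB cells, had the lowest ratio of 8 h to 1 h sums. Atp5b (chromosome 10, 128083273 to 128090391, plus strand), the catalytic subunit, had 1205, 1119, 1117 and 966 CPM in IFNAR;RelB-DBDB cells and 1145, 1119, 1026 and 549 CPM in RelB-DBDB cells. The ratio of 8 h to 1 h was 0.863 (95% interval 0.832 to 0.896) in IFNAR;RelB-DBDB cells against 0.491 (95% interval 0.478 to 0.505) in RelB-DBDB cells. The change over both genotypes missed the threshold (log2 change -0.62 ± 0.21 SE, adjusted p = 0.0804) and the 8 h genotype term passed it (0.75 ± 0.16 SE, adjusted p = 0.0124). Atp5a1 had 1008, 967, 965 and 804 CPM in IFNAR;RelB-DBDB cells and 996, 970.0, 895 and 555 CPM in RelB-DBDB cells, with both 8 h libraries lowest in their genotype and a term short of the threshold (adjusted p = 0.0615). Atp5c1, the gamma subunit of the rotating stalk, had 247, 251, 212 and 192 CPM in IFNAR;RelB-DBDB cells and 265, 267, 219 and 154 CPM in RelB-DBDB cells and fell (log2 change -0.58 ± 0.15 SE, adjusted p = 0.0363), as did Atp5f1 of the peripheral stalk, at 194, 181, 168 and 136 CPM in IFNAR;RelB-DBDB cells and 179, 179, 156 and 87.0 CPM in RelB-DBDB cells (log2 -0.72, adjusted p = 0.0322). Atp5e, the epsilon subunit of the rotating stalk (chromosome 2, 174461072 to 174464105, minus strand), is named after its values were seen and had 133, 116, 119 and 124 CPM in IFNAR;RelB-DBDB cells and 136, 126, 105 and 22.3 CPM in RelB-DBDB cells. Its 7 other libraries lay within a narrow range above the RelB-DBDB 8 h value, and its term, 2.39 ± 0.20 (SE, adjusted p = 0.000254), was the largest of the 86. None of its windows is shared with another gene. Atp5g1, Atp5g2 and Atp5g3 encode the same mature ring subunit. Atp5g2 had 32.1, 24.7, 25.1 and 17.5 CPM in IFNAR;RelB-DBDB cells and 31.7, 27.1, 25.2 and 9.56 CPM in RelB-DBDB cells and fell (log2 change -0.94 ± 0.26 SE, adjusted p = 0.0432; called in 7 of 18 alternatives), but 87.4% of its windows occur in other genes. Atp5g1 had 36.8, 33.9, 32.2 and 29.4 CPM in IFNAR;RelB-DBDB cells and 28.4, 34.7, 29.7 and 11.0 CPM in RelB-DBDB cells. Atp5g3 had 258, 241, 245 and 195 CPM in IFNAR;RelB-DBDB cells and 243, 225, 199 and 79.2 CPM in RelB-DBDB cells. Both were lowest in the RelB-DBDB 8 h library, with terms of 1.31 for Atp5g1 (adjusted p = 0.00835, 11.6% of windows shared) and 1.09 for Atp5g3 (adjusted p = 0.00358, 0% shared).

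Atp5sl, whose human product is known as a complex I assembly factor despite its name, was the member with the most negative 8 h change in IFNAR;RelB-DBDB cells. It had 27.6, 27.8, 17.7 and 11.6 CPM in IFNAR;RelB-DBDB cells and 24.9, 22.6, 20.6 and 13.5 CPM in RelB-DBDB cells. Both genotypes were lowest at 8 h, it fell over both (log2 change -0.94 ± 0.20 SE, adjusted p = 0.0211; called in 8 of 18 alternatives), and its 8 h genotype term did not pass (-0.25). Atp5d, Atp5j2, Atp5k, Atp5o and Atp5h had terms of 0.91, 0.86, 0.77, 0.62 and 0.58, each called higher under library totals. None of these was called under TMM factors or with the GC trend removed, and only Atp5d was under median-ratio factors.

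**Figure D4:**
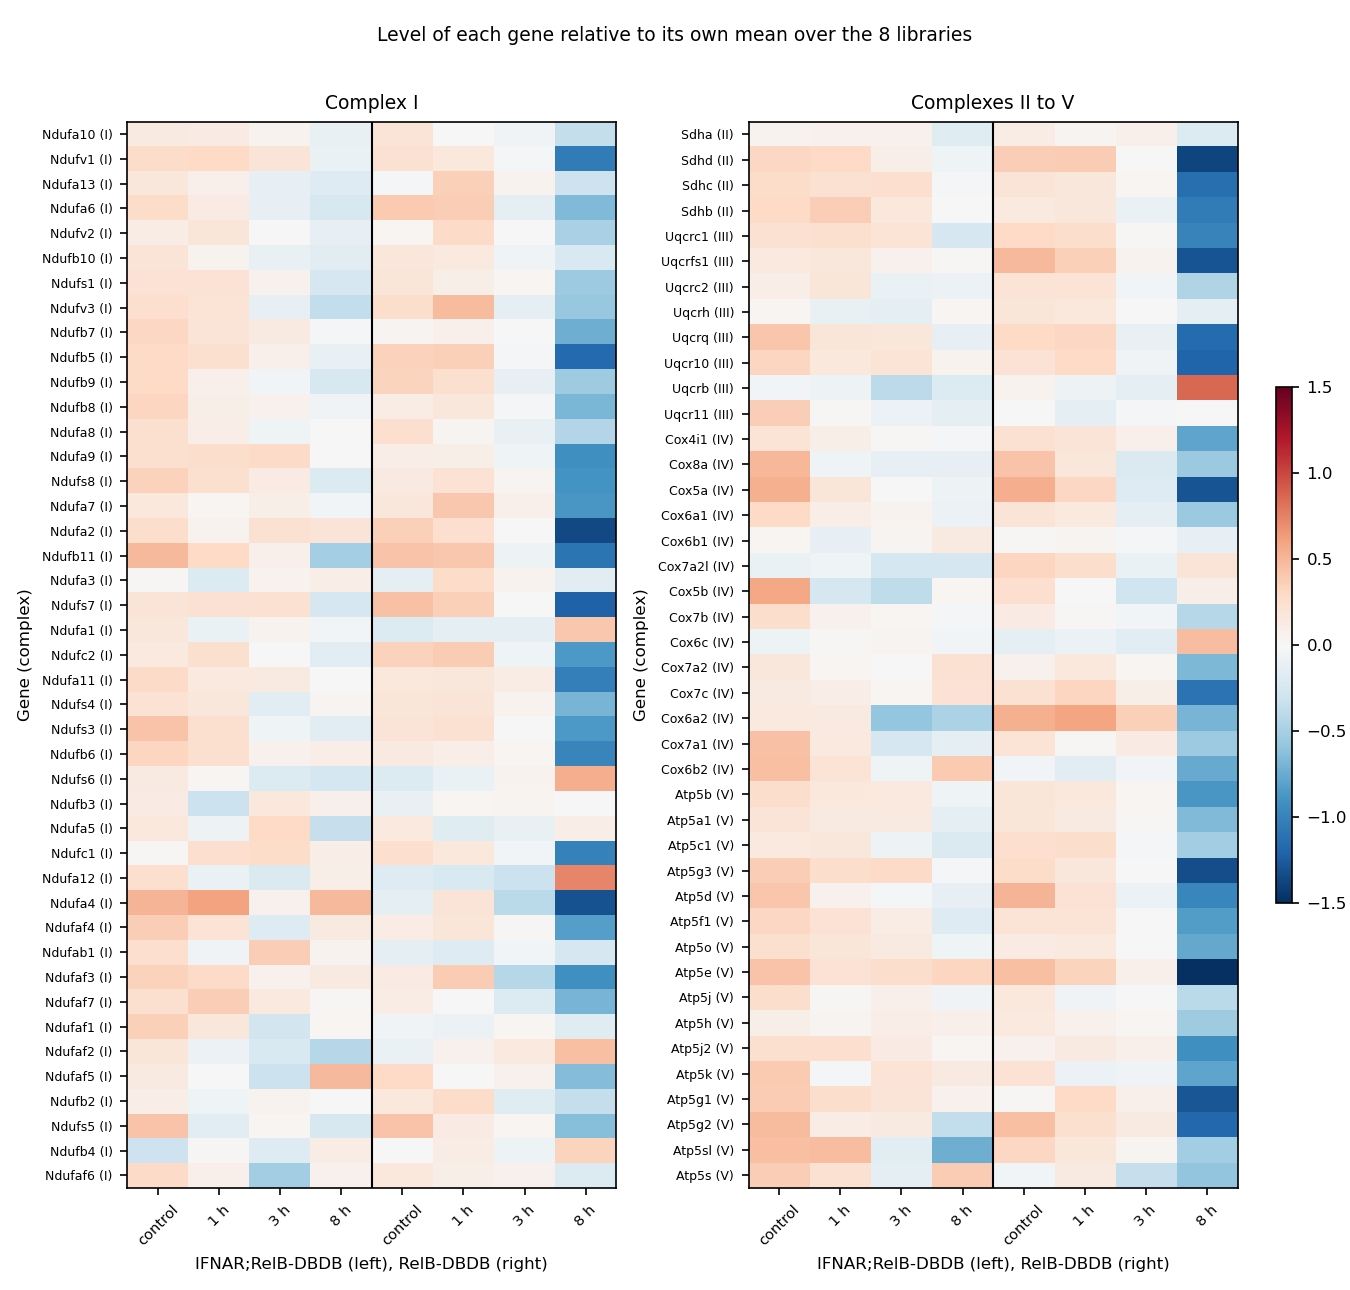
Level of 85 of the 86 members in the 8 libraries as log2(CPM + 1) minus the gene's own mean, complex I on the left and complexes II to V on the right, with IFNAR;RelB-DBDB columns left of RelB-DBDB columns; the colour scale stops at 1.5 in either direction. The RelB-DBDB 8 h column holds the deepest colours below the mean, apart from a few genes such as Ndufa12 and Uqcrb that are above it.

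Mitochondrially encoded subunits went the opposite way from nuclear ones in the RelB-DBDB 8 h library. Of the 13 such genes, 8 names are in the table and 7 were tested (mt-Nd1, mt-Nd2, mt-Nd4, mt-Nd5 and mt-Nd6 of complex I, mt-Cytb of complex III and mt-Co1 of complex IV), with mt-Nd3 at or near 0 in every library. Their sum was 17820.4, 20143, 17642 and 19870.3 CPM in IFNAR;RelB-DBDB cells and 15575, 13949, 16929 and 53534 CPM in RelB-DBDB cells, in the order control, 1, 3 and 8 h. The 8 h sum was 0.986 of the 1 h sum in IFNAR;RelB-DBDB cells and 3.84 times it in RelB-DBDB cells. mt-Co1, the catalytic subunit of complex IV, had 7068, 8109, 6894 and 7829.6 CPM in IFNAR;RelB-DBDB cells and 6625, 5799, 7058 and 17044 CPM in RelB-DBDB cells. mt-Nd5, a proton-pumping subunit of complex I, had 2741, 3009, 2867 and 3157 CPM in IFNAR;RelB-DBDB cells and 2424, 2248, 2729 and 11539.5 CPM in RelB-DBDB cells. For both, the RelB-DBDB 8 h library lay far above the other 7. Over both genotypes 0 of the 7 were called between 1 and 8 h, 3 had an unadjusted p under 0.05 and the median change was 1.04, while the 8 h genotype term was called lower for 7 of 7 (4.66% of all tested genes), from -1.01 for mt-Nd6 to -2.15 for mt-Nd2. All 7 were also at least 1.5-fold higher at 8 h in RelB-DBDB cells under each of the 4 scalings (13.8% of all tested genes under library totals, up to 24.1% under TMM factors). These transcripts and the nuclear ones were measured in the same libraries, and share the library totals. With mitochondrially encoded reads taken out of the totals, 58 of 86 members were at least 1.5-fold lower at 8 h in RelB-DBDB cells (33.5% of all tested genes), and under TMM and median-ratio factors 37 and 38 were (21.4% of all under TMM factors).

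**Figure D5:**
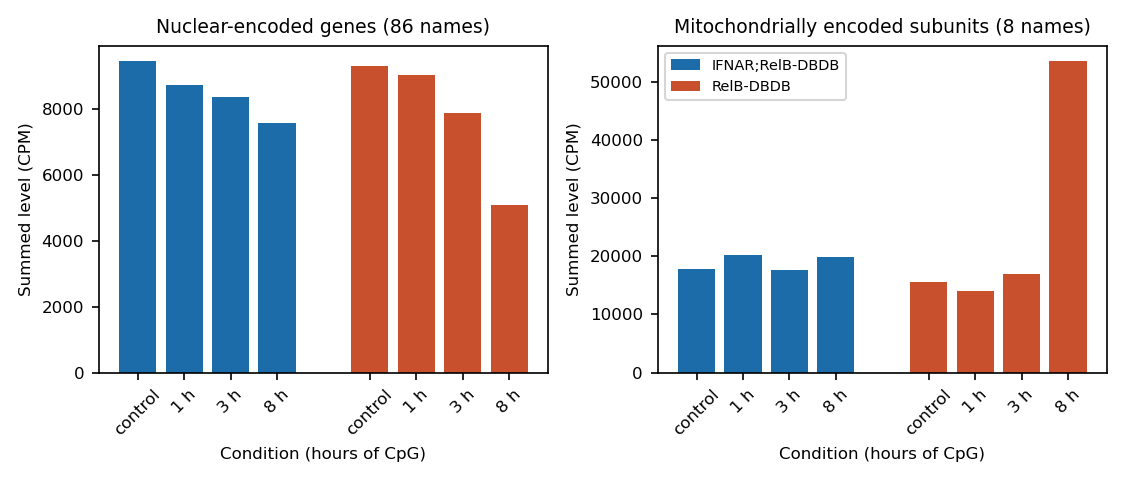
Summed level (CPM, linear axes from 0) of the 86 nuclear members and of the 8 mitochondrially encoded names in each library, with IFNAR;RelB-DBDB cells left of RelB-DBDB cells; each bar is 1 library. At 8 h the nuclear sum was 7572 CPM in IFNAR;RelB-DBDB cells against 5082 CPM in RelB-DBDB cells, and the mitochondrial sum 19870.3 CPM in IFNAR;RelB-DBDB cells against 53534 CPM in RelB-DBDB cells.

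Between 3 and 8 h, 0 of 86 members were called in either direction (0.634% of all tested genes higher and 1.07% lower). An unadjusted p under 0.05 was found for 20 (23.3%), against 18.5% of all tested genes, and the median change was -0.32 against -0.09 over all tested genes. This comparison shares the 8 h libraries with that from 1 h, and once the 8 h library of IFNAR;RelB-DBDB cells was left out, 58 members were called lower and 5 higher, with a median of -0.65. Without the RelB-DBDB 8 h library the median was -0.080 over the members and 0.025 over all tested genes. Cox5b, a subunit at the matrix side of complex IV, had 154, 85.5, 78.7 and 105 CPM in IFNAR;RelB-DBDB cells and 122, 102, 83.1 and 109 CPM in RelB-DBDB cells, with both controls above every CpG library.

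Averaged over the 3 CpG times, 0 of 86 members were called between IFNAR;RelB-DBDB and RelB-DBDB cells (1.5% of all tested genes higher and 0.545% lower). Only 4 (4.65%) had an unadjusted p under 0.05, against 15.6% of all tested genes. In this fit a genotype difference that changes with time counts as spread, including the one seen at 8 h. The low share therefore does not show that members differed less between genotypes than other genes. Without the IFNAR;RelB-DBDB 1 h library 3 members were called higher, and likewise 3 without the RelB-DBDB 1 h library. The median difference was 0.21 in log2 over the members and 0.13 over all tested genes. Without either 8 h library it was 0.016 over the members and 0.049 over all tested genes, and without either 1 h library 0.36 over the members. The 4 were Ndufa4, Ndufa9, Sdhb and Atp5g3, all with positive differences. At 8 h alone, 46 members were at least 1.5-fold higher in IFNAR;RelB-DBDB cells (31.8% of all tested genes) and 4 at least 1.5-fold lower (9.09%), from 1 library of each genotype. Ndufa4, now counted as a subunit of complex IV although named for complex I, had 21.7, 23.1, 15.7 and 21.3 CPM in IFNAR;RelB-DBDB cells and 13.3, 17.2, 11.1 and 5.43 CPM in RelB-DBDB cells. IFNAR;RelB-DBDB cells were above RelB-DBDB cells at every condition, most at 8 h (term 1.36 ± 0.30 SE, adjusted p = 0.0152). AA467197, whose human counterpart C15orf48 encodes a protein that can take the place of NDUFA4 in complex IV, lies outside the set and had 321, 314, 347 and 234 CPM in IFNAR;RelB-DBDB cells and 639, 670.3, 717 and 765 CPM in RelB-DBDB cells. It was lower in IFNAR;RelB-DBDB cells in every condition (log2 difference -1.28 ± 0.17 SE, adjusted p = 0.0205), and the term at 8 h was -0.64 ± 0.15 (SE, adjusted p = 0.0202). Ndufa4l2, the other paralogue, stayed under 1 CPM in all 8 libraries.

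Genes that work with the chain were read from lists chosen with earlier results of these data known. Of 14 tested genes of the tricarboxylic acid cycle, which feeds NADH and succinate to complexes I and II, 0 rose and 5 fell from 1 to 8 h (among them Idh2, Idh3b, Idh3g and Mdh2), with a median of -0.54. Of 13 electron carrier genes 0 rose and 2 fell, Etfa (-0.99) and Etfb (-0.99), the subunits that bring electrons from fatty acid oxidation, with a median of -0.49. Of 33 assembly factors outside the name rule 0 rose and 3 fell: Coa7 (-1.17), Cox10 (-0.89) and Cox11 (-0.99), all acting on complex IV, with a median of -0.27. Beside these stand 6% of all tested genes higher, 13.5% lower and a median of -0.22. None of 12 tested regulators of mitochondrial genes was called from 1 to 8 h, at a median of -0.36. Ppargc1b, a coactivator of respiratory gene transcription, was called lower at 3 h than at 1 h (log2 change -1.41 ± 0.32 SE, adjusted p = 0.0499) and had 20.3, 27.8, 14.2 and 17.0 CPM in IFNAR;RelB-DBDB cells and 18.0, 19.6, 4.56 and 7.15 CPM in RelB-DBDB cells. Both genotypes were lowest at 3 h, RelB-DBDB cells more so. Esrra, a nuclear receptor that drives respiratory genes together with such coactivators, had 67.5, 60.4, 55.9 and 62.8 CPM in IFNAR;RelB-DBDB cells and 58.0, 50.0, 49.2 and 24.5 CPM in RelB-DBDB cells, and its 8 h genotype term was 1.10 (adjusted p = 0.00778). Polrmt (1.12), the mitochondrial RNA polymerase gene, and Pprc1 (0.96) were also called higher in the term, and Gabpa (-0.71) was called lower. Among the other lists the term was called higher for Cox14, Sdhaf1 and Tmem70 (9.09% of 33) and lower for Sco1 (3.03%) of the assembly factors. It was also called higher for Coq9 and Etfb of the carriers (15.4% of 13) and Fh1 and Mdh2 of the tricarboxylic acid cycle (14.3% of 14). Beside these stand 12.7% of all tested genes higher and 4.66% lower, so these 3 lists lay near the background. Of the 12 regulators, 25% were called higher and 8.33% lower.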

How the data were processed

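RNA from bone marrow-derived dendritic cells was made into KAPA stranded mRNA libraries from 1 µg of RNA and read as single 50 bp ends on an Illumina HiSeq, per the labels' protocols. The submitters' processing notes name cutadapt, edgeR and the mm10 build. How reads were aligned and counted, with which versions and whether by strand, is not given in the sources used here, so an antisense or overlapping neighbour may add reads to a gene. Testing the file showed that the deposited signal values are CPM plus 1: each column minus 1 sums to 1000000, and 100% of values are whole multiples of 1 read within 0.01 read. Of 27178 rows, 2161 had no gene name (0.0737% to 0.131% of reads) and were left out of tests, and 16 columns of other samples were not used. A count of 0 allows up to 3 reads, 0.0806 to 0.808 CPM; intervals (exact, 95%) and floors cover counting error only. The 12297 genes that reached 1 CPM in 2 or more libraries, all 86 members among them, were tested with limma 3.58.1 in R 4.3.3 on log2(CPM + 1), which understates changes of low genes, with Benjamini-Hochberg adjustment over all of them at 0.05. Time comparisons used all 8 libraries with genotype and condition as terms (3 residual degrees of freedom), and the genotype comparison the 6 CpG libraries (2). The 8 h genotype term and the GC correction were added after the values were seen. A planned edgeR test was not run: the values were deposited as CPM plus 1, and whole reads worked back from them were used for sums, intervals and scaling factors, not for a count test. Coordinates, lengths and GC content come from GENCODE M21 on mm10 (24249 of 25006 names matched). The text names, per complex, the 3 members with the highest mean CPM and up to 2 called members with the largest change each way from 1 to 8 h, all Sdh genes, Ndufa4 and its paralogues, Cox4i1, Cox7a2l, the mitochondrially encoded subunits and members within a factor of 2 of the floor. Others were chosen after their values were seen, and a few genes are not reported here by name. The members and lists were chosen with earlier results of these data known. Other scalings, pseudocounts, filters and sets of libraries were tried as alternatives. Python 3.11.15 and matplotlib 3.10.9 were used for summaries and plots.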

Additional observations from a re-analysis of the deposited data

Results flagged for a closer look

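Genotype differences at 8 h beyond those at 1 and 3 h passed limma's test (adjusted p under 0.05) for 34 of 86 members in the positive direction (higher in IFNAR;RelB-DBDB than in RelB-DBDB cells), where 12.7% of all tested genes passed, and for 2 in the negative direction, where 4.66% of all did. The test was added after the values were seen, has 1 residual degree of freedom and rests on 1 library per genotype at 8 h, with the RelB-DBDB one standing apart in depth and mitochondrial share; their part was not tested. Among named complex I genes the log2 term was 0.78 for Ndufv1, 0.91 for Ndufs7 and 1.36 for Ndufa4. In complex II it was 1.31 for Sdhd, 0.97 for Sdhc and 0.81 for Sdhb, while Sdha had 0.01 and did not pass. In complexes III and IV it was 0.66 for Uqcrc1, 1.40 for Uqcrfs1, 0.84 for Cox4i1 and 1.19 for Cox5a, and in complex V 0.75 for Atp5b. In the opposite direction, AA467197 had -0.64, and the mitochondrially encoded genes had -2.01 (mt-Nd1), -2.15 (mt-Nd2), -1.55 (mt-Nd4), -2.12 (mt-Nd5), -1.01 (mt-Nd6), -1.81 (mt-Cytb) and -1.35 (mt-Co1). All these terms use library totals. Among the members named, calls of Ndufa4, Sdhd, Uqcrfs1 and Cox5a also held under TMM factors, median-ratio factors and GC removal alike. Those of Sdhc and Cox4i1 held under some of these, and those of Ndufv1, Ndufs7, Sdhb, Uqcrc1 and Atp5b under none.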

How the results depend on the processing

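The number of members called lower from 1 to 8 h (11) was 6 with TMM factors, 4 with median-ratio factors, 3 without a filter, 3 without the genotype term, 3 in the 6 CpG libraries alone and 4 with a GC trend removed (an alternative added after seeing the data). Leaving out 1 library at a time gave 0 to 64 called lower and 0 to 5 called higher, with medians of -0.78 to -0.22. The median change from 1 to 3 h (-0.15) was -0.041 with TMM factors, -0.014 with median-ratio factors and 0.018, the other sign, with the GC trend removed, and 0 to 10 members were called lower with 1 library left out (medians -0.27 to -0.0022). From 3 to 8 h the same gave 0 to 58 lower and 0 to 5 higher, with medians of -0.65 to -0.080, and for the genotype comparison 0 to 3 higher, with medians of 0.016 to 0.36. The 8 h genotype term (34 higher, 2 lower, median 0.58) gave 11 higher, 6 lower and a median of 0.28 with TMM factors, 15, 6 and 0.33 with median-ratio factors, 12, 4 and 0.31 with the GC trend removed, and 0 and 0 without a filter; the cause was not tested. The other alternatives, among them pseudocounts of 0.25 and 5 and a filter of 10 CPM, kept every summary count within 1.5 times and every median's direction. Except where no gene of the table was called, the share of all tested genes called in an alternative fit is not given. These counts therefore cannot be set beside a background. A fit without an 8 h library rests its 8 h level on 1 library. No paired analysis was possible because each genotype and condition has 1 library and the labels carry no replicate numbers. The planned edgeR test on reads worked back from CPM was not run. The shallowest library holds 3711818 reads, so members near 1 CPM rest on few reads there.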
